A study of Homo sapiens with 6 samples.

Results

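The oligoadenylate synthetase (OAS) family of T24 cells was examined by the level of its genes OAS1, OAS2, OAS3 and OASL, which were taken by symbol from the table of the series. All 4 were found among 11079 genes, and all 4 were among the 10008 genes tested. T24 is an established human bladder cancer line. The cells carried either a control short hairpin RNA (shControl, labelled as wild type) or a short hairpin RNA against the long noncoding RNA BLACAT3 (shBLACAT3, labelled as BLACAT3 knockdown). Both groups had received lentivirus and had been selected with puromycin, and neither was given a further treatment in the labels. Each group had 3 libraries of total RNA, 6 in all. The labels do not say whether the replicates were separate cultures or how many clones the selected cells came from, and the p-values therefore cover variation from library to library, which could be purely technical.

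OAS proteins sense viral double-stranded RNA. On binding it, OAS1, OAS2 and OAS3 join ATP into short chains called 2-5A, which act as a second messenger and lead to the cutting of cellular and viral RNA. OASL has the same fold but does not make 2-5A, and carries ubiquitin-like domains at its end. It is known to enhance signalling by the RNA sensor RIGI and to restrain the DNA sensor CGAS. The genes are switched on by type I and type III interferon, and OASL can also be switched on directly by the transcription factor IRF3. OAS1, OAS3 and OAS2 lie next to each other, in this order, on the long arm of chromosome 12, and OASL lies elsewhere on the same arm.

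The promoters of OAS1 and OAS3 are shown because interferon acts on OAS genes through elements in such sequence. RefSeq's promoter table (GRCh38.p14) had an entry for these 2 of the 4 members. Each line gives the 250 bases before the annotated start, 5′ to 3′ on the plus strand, chr12:112906712-112906961 for OAS1 and chr12:112938224-112938473 for OAS3. Capitals mark matches to the core of the interferon-stimulated response element, GAAA followed by any 2 bases and again GAAA, or to a closer form with 1 base between the GAAA repeats. The closer form was added after the OAS1 sequence had been read.
OAS1: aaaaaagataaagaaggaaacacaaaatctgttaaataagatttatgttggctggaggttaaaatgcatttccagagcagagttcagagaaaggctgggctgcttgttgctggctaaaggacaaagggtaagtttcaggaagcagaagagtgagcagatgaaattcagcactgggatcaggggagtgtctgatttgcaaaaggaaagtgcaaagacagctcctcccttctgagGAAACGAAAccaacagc
OAS3: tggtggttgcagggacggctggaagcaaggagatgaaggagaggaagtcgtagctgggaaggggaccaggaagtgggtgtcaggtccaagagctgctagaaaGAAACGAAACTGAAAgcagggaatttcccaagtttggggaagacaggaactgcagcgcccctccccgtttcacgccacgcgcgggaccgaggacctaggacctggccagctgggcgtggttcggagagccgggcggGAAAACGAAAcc

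OAS1 held 1 match, GAAACGAAA, with its first base 17 bases before the start. OAS3 held GAAAACGAAA from 12 bases before the start, and GAAACTGAAA from 143 bases before it, which overlaps a match to the closer form from 148 bases before it. OAS1 also held TTCNNNGAA, the palindromic gamma-activated site, from 168 bases before the start. Both strands of the full 300 bases in the table were searched for each gene. Of 35116 promoter entries of that length, 3.57% held the core with 2 bases between the repeats and 3.12% the closer form. At least 1 of these forms was held by 6.4%, and TTCNNNGAA by 7.66%. A match is a description of the sequence and not a site shown to be bound.

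OAS transcripts were lower in shBLACAT3 cells for each of the 4 genes, but by very different amounts. OASL and OAS2 fell to near 0, whereas OAS1 and OAS3 stood at 40.4% and 64.9% of their shControl level. Levels are FPKM (fragments scaled to transcript length and library size). They are per length, but comparison between genes is only approximate, and reads of an antisense gene may be counted in OAS1, OAS2 and OAS3. In bulk RNA, fewer cells that express a gene and less RNA per cell cannot be told apart.

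OASL, the member without synthetase activity, stood at 42.6, 36.8 and 37.3 FPKM in shControl replicates 1, 2 and 3 and at 0.065, 0.036 and 0.043 FPKM in shBLACAT3 replicates 1, 2 and 3. Every shBLACAT3 library was far below every shControl library. The group means were 38.9 ± 3.21 and 0.048 ± 0.015 FPKM (SD, n = 3 per group), an 809-fold difference that ranged from 564-fold to 1195-fold between single libraries of the 2 groups. The fold rests on values close to 0, whose read support is unknown. On the log2(FPKM + 1) scale, which understates changes of low values, OASL fell by 5.25 (SE 0.08, 95% interval -5.45 to -5.05, limma adjusted p 6.85e-07), and with 0.1 in place of 1 as the added value it fell by 8.04.

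OAS2, a synthetase with a pair of OAS units, stood at 8.78, 7.77 and 7.56 FPKM in the shControl replicates and at 0.147, 0.094 and 0.077 FPKM in the shBLACAT3 replicates. The groups did not overlap. The means of 8.03 ± 0.65 and 0.106 ± 0.036 FPKM (SD, n = 3) differed 75.8-fold, between 51.5-fold and 114-fold from library to library. OAS2 fell by 3.03 on the log2(FPKM + 1) scale (SE 0.09, limma adjusted p 6.34e-06), and by 5.31 with 0.1 added.

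OAS1, the smallest synthetase, with a single OAS unit, stood at 6.55, 7.05 and 5.28 FPKM in the shControl replicates and at 2.28, 2.55 and 2.79 FPKM in the shBLACAT3 replicates. The lowest shControl library, replicate 3, was 1.89-fold above the highest shBLACAT3 library. The means were 6.29 ± 0.91 and 2.54 ± 0.25 FPKM (SD, n = 3), a 2.48-fold difference. OAS1 fell by 1.04 on the log2(FPKM + 1) scale (SE 0.12, 95% interval -1.32 to -0.76, limma adjusted p 0.00318).

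OAS3, the largest member, with a row of 3 OAS units stood at 28.9, 27.3 and 27.5 FPKM in the shControl replicates and at 17.9, 17.3 and 19.2 FPKM in the shBLACAT3 replicates. It had the smallest change of the family and the tightest shControl values, with a coefficient of variation of 3.1%. The means were 27.9 ± 0.87 and 18.1 ± 0.95 FPKM (SD, n = 3), a 1.54-fold difference that ranged from 1.43-fold to 1.67-fold between single libraries. OAS3 fell by 0.60 on the log2(FPKM + 1) scale (SE 0.06, 95% interval -0.75 to -0.45, limma adjusted p 0.00252).

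**Figure D1:**
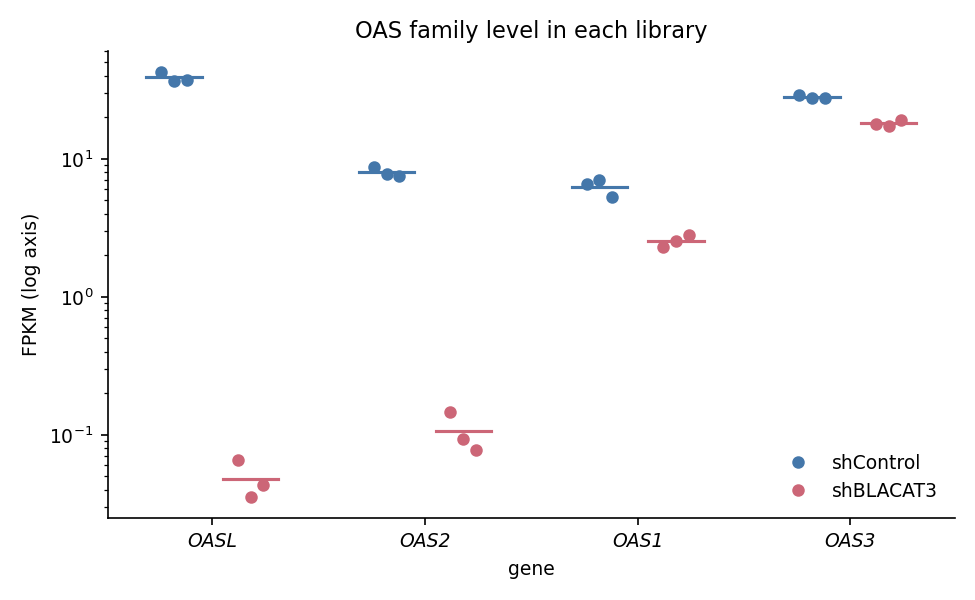
FPKM of OASL, OAS2, OAS1 and OAS3 (log axis) in each of the 3 shControl (blue) and 3 shBLACAT3 (red) libraries, with bars at the group means. The groups do not overlap for any gene, and the gap narrows from OASL (38.9 against 0.048 FPKM) to OAS3 (27.9 against 18.1 FPKM).

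All 4 members were thus called lower, where 6.8% of the 10008 tested genes were called lower and 2.57% higher, at a limma adjusted p under 0.05. Groups that did not overlap, with every shBLACAT3 library below every shControl library, were found in all 4 members and in 18.6% of tested genes. The median log2 fold change was -2.03 for the family and -0.0025 for all tested genes. Ordered from the lowest log2 fold change of all tested genes, OASL came in place 2, OAS2 in place 12, OAS1 in place 123 and OAS3 in place 401. The table holds only genes whose higher group mean is at least 0.5 FPKM, so OASL and OAS2 are in it through their shControl level.

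The order of the levels within the family was therefore not the same in the 2 groups. In shControl cells it ran OASL, OAS3, OAS2, OAS1 from high to low, and no neighbours in that order overlapped, the closest being OAS2 at 7.56 FPKM or more and OAS1 at 7.05 FPKM or less. In shBLACAT3 cells it ran OAS3, OAS1, OAS2, OASL, again with no overlap, though the last 2 lay close to each other (lowest OAS2 value 0.077, highest OASL value 0.065 FPKM). The summed level of the family was 86.8, 78.9 and 77.6 FPKM in the shControl replicates and 20.4, 20.0 and 22.1 FPKM in the shBLACAT3 replicates, a 3.9-fold difference of the means.

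Most of the remaining family transcript in shBLACAT3 cells was OAS3. Its share of the summed FPKM was 33.3%, 34.7% and 35.4% in the shControl replicates and 87.8%, 86.6% and 86.8% in the shBLACAT3 replicates. The share of OASL went from 47.9% ± 1.23 to 0.231% ± 0.077 (SD, n = 3), that of OAS2 from 9.89% ± 0.19 to 0.513% ± 0.19, and that of OAS1 from 7.76% ± 1.08 to 12.2% ± 0.89. The share of OAS1 was higher in shBLACAT3 cells although its level was lower; OASL and OAS2 had larger falls than OAS1, and OAS3 a smaller one. Each share differed without overlap between the groups, and each exact two-sided permutation test gave 0.1, the smallest p that 3 against 3 libraries allow.

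**Figure D2:**
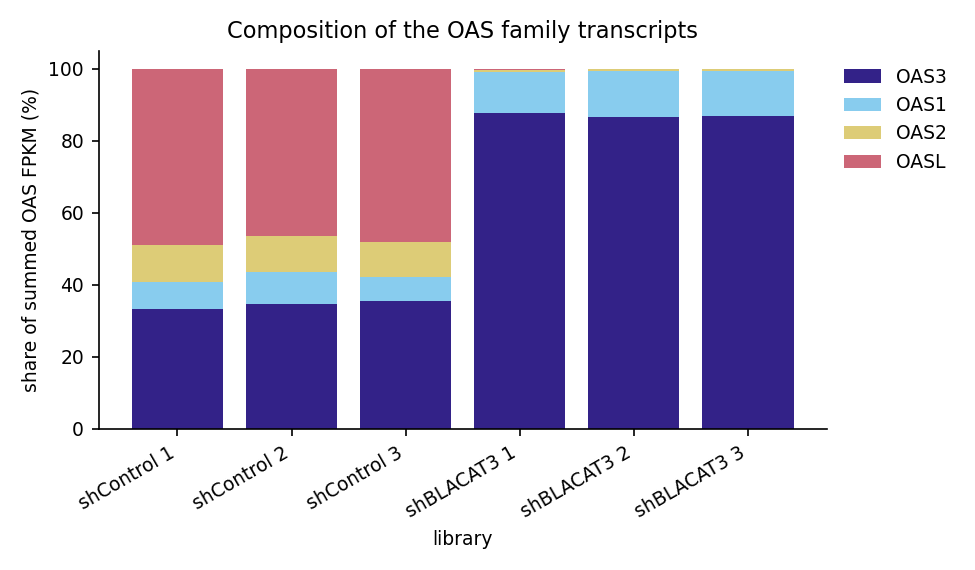
Share of each member in the summed OAS FPKM (percent, stacked bars) in each library. OASL makes up 47.9% on average in shControl and 0.231% in shBLACAT3 libraries, and OAS3 goes from 34.5% to 87.1%.

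The sizes of the changes were compared between members as the difference of their log2(FPKM + 1) values in each library. OASL fell by more than OAS3 by 4.65, than OAS1 by 4.21 and than OAS2 by 2.22 on the log2 scale. OAS2 exceeded OAS3 by 2.43 and OAS1 by 1.99 in its fall, and OAS1 exceeded OAS3 by 0.44. With 0.1 added in place of 1, the same differences were 7.42, 6.77 and 2.73 for OASL, 4.69 and 4.05 for OAS2, and 0.65 for OAS1, so their sizes depend on the pseudocount, while the order OASL, OAS2, OAS1, OAS3 was the same. The OAS1 to OAS3 difference was -1.99, -1.82 and -2.18 in the shControl replicates and -2.53, -2.36 and -2.41 in the shBLACAT3 replicates, so even this smallest gap did not overlap between the groups. All 6 pairs gave an exact permutation p of 0.1 (two-sided, 0.1 after Benjamini-Hochberg adjustment over the 6 pairs), the lowest this design can reach, so no pair can pass 0.05.

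The neighbours of the OAS genes on chromosome 12 are a background for the position of the locus. Of the 10 nearest protein-coding genes on each side of the OAS1-OAS3-OAS2 cluster, 11 of 20 were tested. Their median log2 fold change was -0.04, with a range from -0.46 to 0.36. Limma called 1 of the 11 lower and 2 higher, where 6.8% and 2.57% of all tested genes were so called. RITA1, a regulator of Notch signalling, was lower (11.3 ± 0.75 and 7.92 ± 0.87 FPKM, SD, n = 3), and ERP29, a chaperone of the endoplasmic reticulum (24.9 ± 0.62 and 32.1 ± 0.75 FPKM), and RPL6, a ribosomal protein (180 ± 8.0 and 221 ± 11.97 FPKM), were higher. These 3 calls depended on which libraries were kept. That of RITA1 was lost without any of the libraries but shBLACAT3 replicate 3 (largest adjusted p 0.117), that of RPL6 without any but shBLACAT3 replicate 1 (largest 0.143), and that of ERP29 without shControl replicate 1 or 3 (largest 0.062, limma). The call of RPL6 was also lost with the replicate number as a block (limma adjusted p 0.091), with median scaling (0.069) and without the mean-variance trend (0.062).

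Around OASL, 14 of 20 neighbours were tested and limma called 0 of them, with a median of -0.02 and a range from -0.43 to 0.13. As 6.8% of all tested genes were called lower and 2.57% higher, few calls would be looked for among 14 genes. Over both loci, 8 of 25 tested neighbours had an unadjusted p under 0.05, as had 25.6% of all tested genes. Within the OAS1-OAS3-OAS2 cluster, the change of OAS3, the middle gene, was the smallest, and that of OAS2, at one end, the largest.

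**Figure D3:**
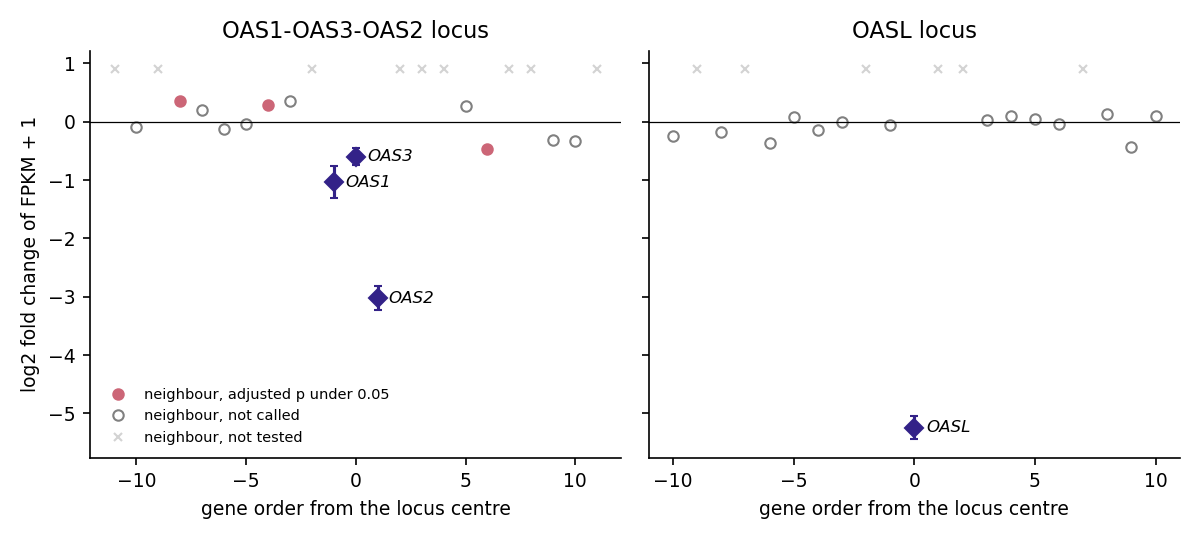
Log2 fold change of FPKM + 1 (shBLACAT3 minus shControl) of the OAS genes (diamonds, 95% interval) and of their protein-coding neighbours in gene order; crosses at the top are neighbours that were not tested. OASL at -5.25 and OAS2 at -3.03 lie far below their neighbours, which stay between -0.46 and 0.36. OAS1 at -1.04 and OAS3 at -0.60 lie closer to them, and the interval of OAS3 (-0.75 to -0.45) reaches the lowest neighbour.

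Genes that act on 2-5A or on the response to it were examined next. ABCE1, a ribosome recycling factor that is also known to dampen the 2-5A response, stood at 24.3, 26.8 and 24.8 FPKM in the shControl replicates and 32.3, 34.9 and 26.5 FPKM in the shBLACAT3 replicates. The groups overlapped, and its log2 fold change of 0.29 (95% interval 0.03 to 0.54) did not pass (limma adjusted p 0.153). PDE12, a phosphodiesterase that breaks down 2-5A, stood at 6.84 ± 0.38 and 7.54 ± 0.17 FPKM (SD, n = 3; 95% interval of the log2 difference -0.05 to 0.29). AKAP7, which has an isoform that also cleaves 2-5A, stood at 2.64 ± 0.12 and 2.67 ± 0.28 FPKM (95% interval -0.20 to 0.22). Of the 3 tested genes of this list, limma called 0 in either direction, and 1 had an unadjusted p under 0.05. Of all tested genes, 6.8% were called lower and 2.57% higher, and 25.6% had an unadjusted p under 0.05. A list of 3 genes is too short to set against these shares. Without shBLACAT3 replicate 3, the library that overlapped the shControl group, ABCE1 was called higher (log2 fold change 0.40, limma adjusted p 0.026). The intervals of these 3 leave room for small changes, and none reaches down to the fall of OAS3.

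Among the sensors of foreign nucleic acid and their signalling partners, limma called 4 of 13 tested genes lower and 0 higher. Of all tested genes, 6.8% were called lower and 2.57% higher. The median log2 fold change of the list was -0.23, and 10 of the 13 were negative. IFIH1, the sensor of long double-stranded RNA, fell from 32.2 ± 0.93 to 6.07 ± 0.59 FPKM (SD, n = 3; limma adjusted p 1.93e-05), and RIGI, the helicase that OASL acts on, from 47.6 ± 3.02 to 13.5 ± 1.03 FPKM (7.45e-05). IRF7, an interferon regulatory factor (3.8 ± 0.49 and 2.44 ± 0.35 FPKM), and TLR3, the endosomal sensor of double-stranded RNA (2.94 ± 0.08 and 1.87 ± 0.34 FPKM), passed narrowly. The call of IRF7 was lost without any 1 of the 6 libraries (largest limma adjusted p 0.158), and that of TLR3 without any but shBLACAT3 replicate 3 (largest 0.143), and the list had 2 or 3 calls with 1 library left out. Quantile normalization ended both calls (adjusted p 0.050 for IRF7, just above the threshold, and 0.084 for TLR3, limma), array weights that of IRF7 (0.061), and the replicate block (0.085) and median scaling (0.052) that of TLR3. With the filter at 0.1 FPKM, DHX58, a regulator of RIGI, was called as well (limma adjusted p 0.000913), with 1.96, 1.38 and 1.28 FPKM in the shControl replicates and 0.034 and 0.049 FPKM in shBLACAT3 replicates 3 and 2, and listed at 0 in replicate 1.

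CGAS, the DNA sensor that shares its fold with the OAS enzymes, stood at 17.9 ± 1.77 and 18.8 ± 0.03 FPKM (SD, n = 3), with a 95% interval of its log2 difference from -0.12 to 0.27. The wider list of nucleotidyltransferases related to OAS by fold, among them CGAS, the RNA-binding protein ILF2 and noncanonical poly(A) polymerases, had a median log2 fold change of -0.0058 over 16 tested genes. Of these, 8 were negative, and limma called 1 lower and 0 higher. That is near the share of all tested genes called lower, 6.8%. The gene called was TENT5A, a cytoplasmic poly(A) polymerase, at 1.67 ± 0.14 and 0.775 ± 0.11 FPKM (SD, n = 3). Its call was lost without shControl replicate 1 (limma adjusted p 0.051).

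The interferon genes whose products switch on OAS transcription were low in shControl cells and at or near 0 in shBLACAT3 cells. IFNL1, a type III interferon, stood at 6.41, 7.23 and 6.18 FPKM in the shControl replicates and was listed at 0 in all 3 shBLACAT3 libraries. IFNB1, the type I interferon made by many non-immune cells, stood at 2.54, 2.31 and 2.56 FPKM in the shControl replicates and was listed at 0, 0.145 and 0 FPKM in the shBLACAT3 replicates. IFNL2 (2.29 to 3.98 FPKM) and IFNL3 (2.64 to 3.75 FPKM) were also detected in each shControl library. In shBLACAT3 libraries IFNL2 was listed at 0 in all 3, and IFNL3 in 2, with 0.075 FPKM in replicate 1. IFNL2 and IFNL3 are near-identical copies, and how reads were divided between them is uncertain.

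Of 22 tested genes of interferon signalling, limma called 8 lower and 0 higher, where 6.8% and 2.57% of all tested genes were so called. The median log2 fold change of the list was -0.37, and 19 of the 22 were negative. The 8 include IFNL1, IFNL2, IFNL3 and IFNB1. These are in the table and passed the mean filter of 1 FPKM only through their shControl level. STAT2 and IRF9, which act in ISGF3, the complex that carries the interferon signal to OAS promoters, were looked at after their values were seen, and neither was called. STAT2 stood at 3.35 ± 0.27 and 3.0 ± 0.63 FPKM (SD, n = 3), with overlap of the groups (limma adjusted p 0.563). IRF9 spread from 3.45 to 6.68 FPKM in shControl and from 2.17 to 4.39 FPKM in shBLACAT3 libraries, and its 95% interval of -1.20 to 0.15 on the log2 scale is wide enough to hold the change seen in OAS1.

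The family spanned most of the range of other interferon-stimulated genes. Of 47 tested genes of a comparison list of such genes, limma called 34 lower and 0 higher. Of all tested genes, 6.8% were called lower and 2.57% higher. The median log2 fold change of the list was -0.81, and 46 of the 47 were negative. Some, such as RSAD2, CMPK2 and BST2, had shBLACAT3 means under 1 FPKM and passed the filter through their shControl level. All 47 had a higher, that is less negative, log2 fold change than OASL, and 6 had a lower one than OAS2, 20 than OAS1 and 28 than OAS3. With 0.1 added in place of 1, these numbers were 0, 3, 21 and 31. By the plain ratio of mean FPKM, RSAD2 had a larger difference (1367-fold) than OASL, though it rests on shBLACAT3 values near 0, 1 of them listed at 0. The 4 with the largest change were IFIT1 (59.2 ± 0.25 and 0.808 ± 0.20 FPKM, SD, n = 3) and IFIT2 (91.4 ± 2.90 and 1.80 ± 0.08 FPKM), which bind RNA, IFI44 (58.9 ± 4.45 and 1.54 ± 0.38 FPKM), and RSAD2, the antiviral enzyme viperin (19.1 ± 1.02 and 0.014 ± 0.016 FPKM). Of 8 further genes of this list with a mean under 1 FPKM, 6 were called lower with the filter at 0.1 FPKM. With that filter, limma called 895 of all 11079 genes lower. These 6 are in the table only through their shControl level, so a lower call was favoured in advance.

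**Figure D4:**
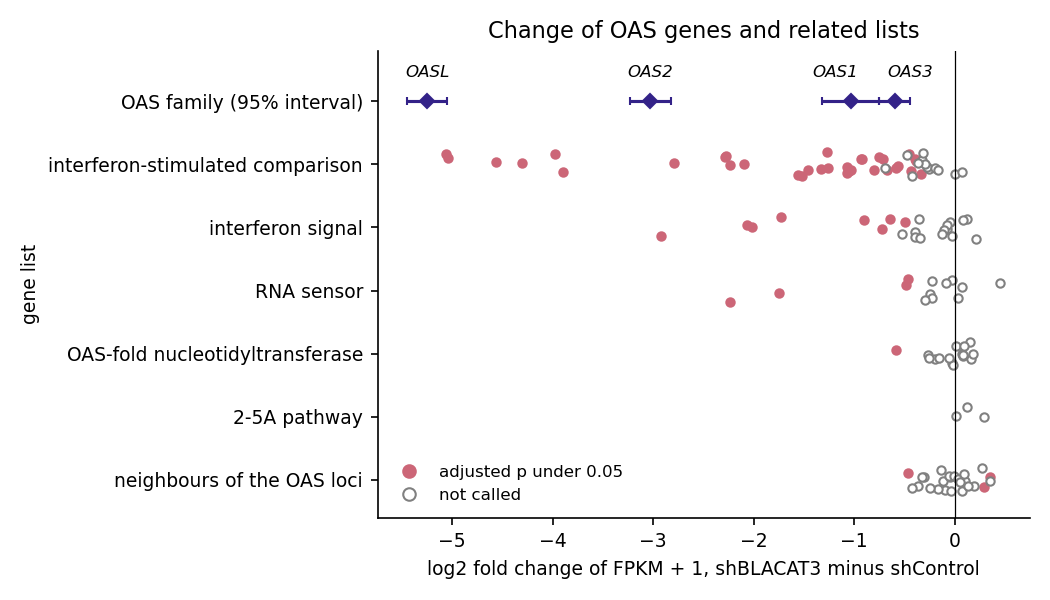
Log2 fold change of FPKM + 1 (shBLACAT3 minus shControl) of the OAS genes with 95% intervals (diamonds) above the tested members of each list (filled, adjusted p under 0.05; open, not called; vertical scatter has no meaning). The OAS genes run from -5.25 to -0.60, over much of the range of the interferon-stimulated list. The 3 tested 2-5A pathway genes lie between 0.009 and 0.29, and most OAS-fold genes lie near 0.

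The genes whose pattern was most like that of each member differed from member to member. Likeness was the Euclidean distance over the 6 libraries between log2(FPKM + 1) values centred on each gene's mean, so it mostly reflects the size of the difference between the groups. Among the nearest to OASL were IFIT2 (distance 0.30), IFIT1 (0.38), IFI44 (0.91) and RSAD2 (1.15). Nearest to OAS2 were IFNL1 (0.26), HERC5, the ligase of the modifier ISG15 (0.33), CXCL10, a chemokine (0.45), IGFBP6 (0.57) and HLA-B (0.59).

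OAS1 lay nearest to HOXC8, S100A2, MTMR11, TNNT1 and TGFA (0.19 to 0.23), and OAS3 to CDK2AP2, LRRC61, C1orf115, BHLHE40 and MEX3A (0.045 to 0.114). None of these 10 was on the interferon-stimulated list, and genes of small change are many, so close matches are easier to find for them. Between members the smallest distance was that of OAS1 and OAS3 (0.61) and the largest that of OAS3 and OASL (5.70).

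Some properties of the libraries bear on these values. Sums over the table were 220543 to 225122 FPKM in shControl and 211958 to 226953 FPKM in shBLACAT3 libraries, and the read depth behind them is unknown. Of the 9 markers of urothelium and epithelium, KRT7, KRT8 and KRT18 were in the table, with summed levels of 174 to 204 FPKM in shControl and 117 to 136 FPKM in shBLACAT3 libraries. KRT8 (60.7 ± 4.78 and 22.1 ± 2.41 FPKM, SD, n = 3) and KRT18 (112 ± 14.98 and 74.2 ± 5.19 FPKM) were called lower, the latter not without shControl replicate 1 or 3 or shBLACAT3 replicate 1 or 2 (largest limma adjusted p 0.092), while KRT7, at 20.0 ± 5.62 and 32.0 ± 3.45 FPKM, did not pass (0.097). Of 6 leukocyte markers only CD68 was in it, at 0.686 to 1.21 FPKM in shControl and 0.0038 to 0.624 FPKM in shBLACAT3 libraries, and none of 3 endothelial markers was. The part of these marker differences in the OAS values was not tested. Members share almost no exact 31-base words, which bears on how reads are assigned and not on how alike the sequences are. Of such words in the annotated transcripts (GENCODE 29), 1 of 5050 of OAS1 and 1 of 3571 of OASL occurred in another member. For OAS2 and OAS3 it was 0. An antisense gene overlaps OAS1, OAS2 and OAS3 in that annotation, and since the strand setting of the authors' counting is not given in the sources used here, its reads cannot be told apart from theirs. The level of BLACAT3 was not analysed here, so the labels were not checked against it.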

How the data were processed

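RNA-seq of T24 cells was deposited as 1 table of gene values for 3 shControl and 3 shBLACAT3 libraries. The authors' values were read as FPKM from their form, since the deposited header names no unit; per the submitters' processing notes the tools were cutadapt, HISAT2 2.1.0 and StringTie, with the build and annotation not given in the sources used here. Column names with NC were read as shControl and those with SH as shBLACAT3. Of 11081 rows, 11007 were matched to a symbol by Ensembl identifier, and rows of 2 shared symbols were summed.

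Genes averaging 1 FPKM or more entered limma 3.58.1 (R 4.3.3), fitted to log2(FPKM + 1) values (group as the only term, moderated with a mean-variance trend, two-sided, Benjamini-Hochberg over all tested genes, threshold 0.05). The test was tried on simulated data in which only genes of higher mean level were given a change. That trial does not cover values near 0, such as those of OASL and OAS2 in shBLACAT3 libraries. FPKM holds no counts, so no count test was run and the depth is unknown. Member pairs and shares were compared by exact permutation over libraries.

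Named genes were the 4 members, the tested genes of the 2-5A list, up to 4 genes per other list with the largest change among those called, called neighbours, and the 5 nearest patterns per member. DHX58, CGAS, ILF2, STAT2 and IRF9 were named after their values were seen. The members and lists were chosen with earlier results of these data known. Some genes that these rules take are not reported here.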

Additional observations from a re-analysis of the deposited data

How the results depend on the processing

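The log2 fold changes of OAS1, OAS2, OAS3 and OASL kept their direction and passed an adjusted p under 0.05 in all 14 other settings (replicate block, pseudocount 0.1, filter at 0.1, no filter, median scaling, quantile normalization, no trend, array weights, and each of 6 libraries left out). The largest adjusted p was 0.028 for OAS1, with the replicate number as a block, and 0.021 for OAS3. Left-out libraries moved them between -1.14 and -0.96, -3.07 and -2.97, -0.64 and -0.57, and -5.28 and -5.18. Genes called lower numbered 451 and higher 161 with the replicate block, against 681 and 257, and 276 to 753 and 81 to 586 with 1 library left out; the lowest counts were without shControl replicate 1 (276 and 81) and the highest number of higher calls without shBLACAT3 replicate 3 (586). Lower calls of the RNA sensor list, 4, were 2 under quantile normalization and 2 to 3 with 1 library left out, those of the OAS-fold list 0 to 1 and those of the neighbours 0 to 2. AKAP7 ranged from -0.052 to 0.045 with 1 library left out and was negative without shControl replicate 3 or shBLACAT3 replicate 1. The replicate numbers were not taken as pairs, since deviations from the group means correlated by 0.10, 0.12 and 0.09 between libraries of the same number, although each library correlated best with its own number. Depth is unknown, so the counting error of values near 0 FPKM cannot be stated.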
